A study of Homo sapiens with 18 samples.

Results

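The 10 interleukin receptor chains followed here were IL2RA, IL2RB, IL2RG, IL4R, IL6R, IL6ST, IL7R, IL10RA, IL10RB and IL21R. They were taken by gene symbol from the 56609 symbols of a gene count table, and all 10 had enough counts to be among the 31872 genes tested. The cells were HG3, MEC2 and PCL12, 3 EBV-positive cell lines derived from chronic lymphocytic leukemia (CLL), each of them a single established line. CpG-stimulated cells received the TLR9 agonist CpG-ODN2006 at 2.5 μg/mL for 4 h, and unstimulated cells of the same line served as the control. With 3 replicates of each state in each line there were 6 groups and 18 libraries, and in a replicate series 1 stimulated sample went with 1 unstimulated sample. The labels do not say whether replicates were separate cultures, so the P values measure only the spread between these samples, which may be technical.

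Interleukin receptors are assembled from chains that bind the cytokine and chains that carry the signal into the cell. IL2RA (CD25) raises the affinity of the IL-2 receptor, IL2RB is a signaling chain for IL-2 and IL-15, and IL2RG is the common γ chain that also serves IL4R, IL7R and IL21R. IL6R binds IL-6 and hands it to IL6ST (gp130), the signaling chain of the whole IL-6 family, and IL10RA and IL10RB form the receptor for IL-10. These receptors have no kinase activity of their own and signal through JAK kinases and STAT transcription factors. In B cells they govern growth, survival, class switching and differentiation, and CD25 is a classical activation marker of B and T lymphocytes. TLR9 is an endosomal sensor of unmethylated CpG DNA that activates NF-κB.

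Of the 10 chains, IL2RA is the one called in all 3 comparisons between lines and the one that met the DEG definition after CpG, so its promoter is shown. The RefSeq window of 250 bases before and 50 bases after the start site lies at chr10:6062318-6062617 on the minus strand of GRCh38.p14, and is written 5′ to 3′ along the gene. The capitals mark a run of bases from -211 to -201 (counted from the start site, the last base before it being -1) that holds 2 overlapping matches to the consensus κB motif of NF-κB, 1 on each strand.

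IL2RA promoter: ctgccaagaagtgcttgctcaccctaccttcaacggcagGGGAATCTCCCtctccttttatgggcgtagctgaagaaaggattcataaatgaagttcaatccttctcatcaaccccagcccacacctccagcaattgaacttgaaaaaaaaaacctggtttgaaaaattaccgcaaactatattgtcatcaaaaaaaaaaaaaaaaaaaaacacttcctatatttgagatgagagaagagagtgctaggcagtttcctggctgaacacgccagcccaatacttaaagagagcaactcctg

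The consensus κB motif, searched on both strands, was found in 5.91% of the 35116 RefSeq promoters of 300 bases. Among the 9 chains with a promoter in the table it was found in 2, IL2RA and IL4R, the latter with matches on the opposite strand at -50 to -41 and at -10 to -1. The STAT motif TTCNNNGAA was found in 1 of the 9 (IL10RB) and in 7.66% of all promoters. No promoter of IL2RB was in the table. These matches describe the letters of the windows alone.

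Values are CPM, the deposited counts as a share of the library's total after TMM scaling. A gene was called where its Benjamini-Hochberg adjusted p in edgeR's quasi-likelihood test was under 0.05. For CpG the definition of differentially expressed genes (DEGs) in the study's methods, a nominal P under 0.01 with |Log2FC| of at least 1, was applied as well. Library totals ran from 20382943 to 67308932 counts, a floor of 3 counts then stands for 0.0429 to 0.155 CPM, and the 10 chains together took 0.0618% to 0.154% of a library's counts. The floors cover counting error only, since copies of a read made by PCR may be counted, whereas the intervals are those of the fit and carry the spread between libraries. HG3 unstimulated replicate 2 and MEC2 CpG replicate 2 stood apart with 20.2% and 19.7% mitochondrial counts, against 2.82% to 9.28% in the other 16. In PCL12, replicates 2 and 3 of both states carried 45 genes expressed in MEC2 at a median of 29.0% to 31.3% of the MEC2 level. The genes had been picked as nearly absent from PCL12 replicate 1 (2.26% to 2.36%). They are referred to as MEC2 transcripts, which names the pattern alone, and where they came from was not tested. These 4 PCL12 libraries and the 2 with high mitochondrial shares are referred to as the libraries that stand apart. B cell markers summed to 2572 to 5678 CPM in every library, with MS4A1 expressed in all groups. In unstimulated cells the sum was 3848 to 5678 CPM in HG3, 2918 to 3755 CPM in MEC2 and 2642 to 3579 CPM in PCL12. Of the 8 markers, 1 was called higher and 2 lower than in HG3 in MEC2, and likewise in PCL12. Of all tested genes, 9.78% and 9.44% were called in these comparisons. The 5 T cell markers summed to 0.0302 to 2.40 CPM, the 4 NK cell markers to 0.0516 to 2.45 CPM and the 5 myeloid markers to 0.898 to 8.96 CPM. The NK cell markers summed to 1.28 to 2.45 CPM in unstimulated MEC2, against 0.0516 to 0.550 CPM in HG3 and 0.321 to 0.705 CPM in PCL12, and 1 of 4 (KLRF1) was called higher in MEC2 than in HG3. The 3 plasma cell markers summed to 44.3 to 157 CPM, and 1 of 3 (SDC1) was called higher in MEC2 than in HG3 (Log2FC 1.99) and PCL12 (1.56). The other 2 had a negative Log2FC in both comparisons without being called, and the median of the 3 was -0.76 and -1.16. Their sum in unstimulated cells was 74.5 to 74.7 CPM in MEC2, 49.9 to 157 CPM in HG3 and 107 to 156 CPM in PCL12. The part of these markers in the differences of the members was not tested, and KLRF1 and SDC1 were named after their values were seen. CD3D was at 0 in all unstimulated libraries. CD5, a defining surface marker of CLL, reached 24.1 to 69.6 CPM in unstimulated HG3 but only 0 to 0.0570 CPM in MEC2 and 0.0929 to 1.35 CPM in PCL12.

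Levels of some of the receptor chains differed between the 3 lines before stimulation. Against HG3, MEC2 had more IL2RB and less IL2RA, IL6R and IL6ST, and PCL12 had more IL2RA and IL2RB and less IL6ST. MEC2 and PCL12 differed in IL2RA alone among the called members. In numbers, 1 member of 10 was higher and 3 were lower in MEC2 than in HG3, where 4.81% and 4.97% of all tested genes were called in these directions. In PCL12 against HG3, 2 were higher and 1 lower (background 4.87% and 4.57%), and in MEC2 against PCL12 none was higher and 1 lower (0.524% and 1.53%). The median Log2FC of the members was -0.03, 0.05 and 0.00 in these comparisons, beside 0 over all tested genes each time. The first 2 comparisons share the HG3 libraries and are given side by side. In HG3 unstimulated replicate 3 the members took 0.152% of the counts, against 0.0891% and 0.0618% in replicates 1 and 2. In bulk RNA, fewer cells that carry a transcript and less of it in each cell cannot be told apart.

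**Figure D1:**
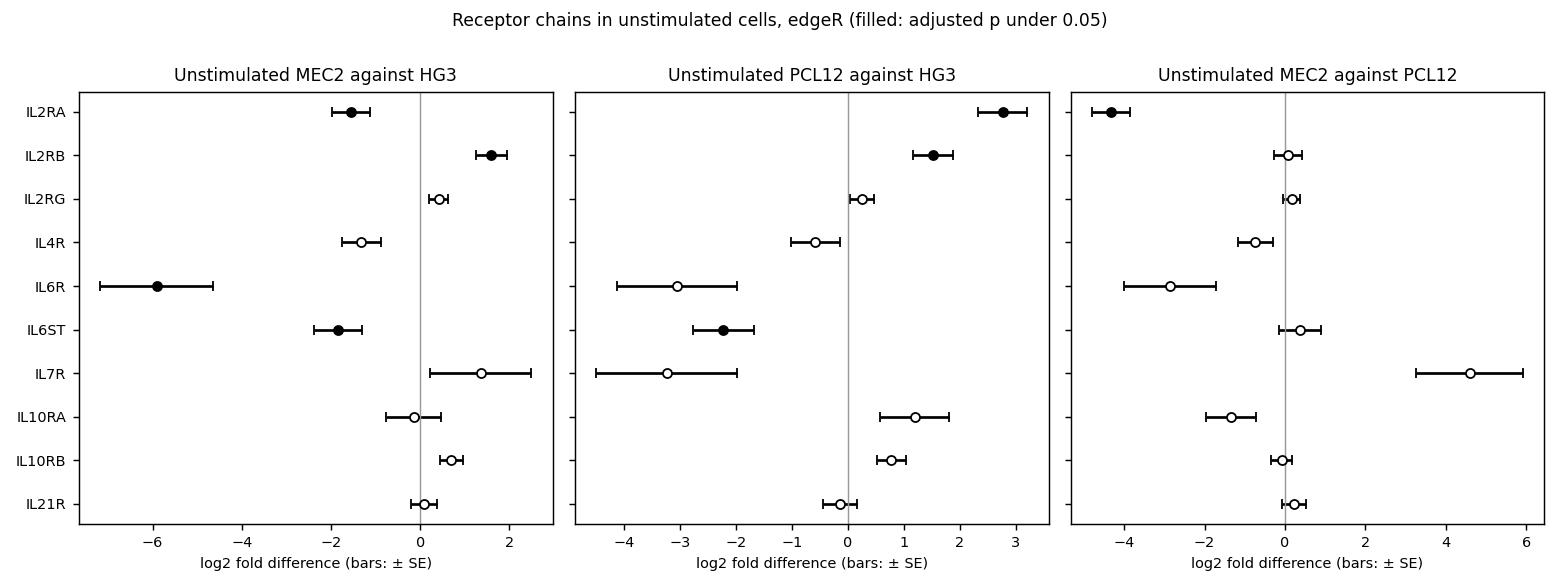
Log2 fold difference (x axis) of each receptor chain (rows) between unstimulated lines, with bars of ± SE and filled points for an adjusted p under 0.05 in edgeR. IL2RA is far to the left for MEC2 against PCL12 (-4.32), and IL2RB lies at 1.59 and 1.52 against HG3 in both other lines.

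Within the IL-2 receptor, IL2RA (chr10:6010689-6062370 on GRCh38, as for all positions of genes here) separated all 3 lines. Unstimulated HG3 had 3.52, 3.56 and 11.3 CPM in replicates 1, 2 and 3. Unstimulated MEC2 had 2.35, 2.57 and 1.37 CPM. Unstimulated PCL12 had 54.2, 40.5 and 30.9 CPM. PCL12 was above both other lines in every library, MEC2 was below HG3 in every library, and no pair of groups overlapped. PCL12 exceeded HG3 by a Log2FC of 2.77 (SE 0.44, adjusted p = 7.53e-05, edgeR), which is 6.81-fold. Without HG3 replicate 3 this Log2FC was 3.56 (adjusted p = 4.44e-06, edgeR). MEC2 fell below PCL12 by a Log2FC of -4.32 (SE 0.47, adjusted p = 2.33e-06, edgeR). Without PCL12 replicates 2 and 3, the libraries with MEC2 transcripts, that value was -4.72 (adjusted p = 9.28e-06, edgeR). The lower level in MEC2 than in HG3 was smaller (Log2FC -1.56, SE 0.43, adjusted p = 0.0193, edgeR) and leaned on HG3 replicate 3: without it the Log2FC was -0.76 (adjusted p = 0.265, edgeR), and the call was also lost, at a Log2FC of similar size, without MEC2 replicate 1 (-1.62, adjusted p = 0.0555) or 3 (-1.32, adjusted p = 0.109) and with limma-voom (-1.43, adjusted p = 0.209).

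IL2RB (chr22:37118666-37175118), the signaling partner, followed another order. In unstimulated cells it stood at 164, 61.9 and 276 CPM in HG3, and the value of 61.9 CPM came from the library with 20.2% mitochondrial counts. In MEC2 it stood at 537, 592 and 388 CPM. In PCL12 it stood at 579, 325 and 531 CPM. Every MEC2 and PCL12 library was above every HG3 library, while MEC2 and PCL12 overlapped. The Log2FC was 1.59 (SE 0.36, adjusted p = 0.00346, edgeR) for MEC2 and 1.52 (SE 0.36, adjusted p = 0.00545, edgeR) for PCL12 against HG3, about 3.02-fold and 2.86-fold. Without the libraries that stand apart these were 1.22 and 1.44 (edgeR). With the compared groups alone the PCL12 value was 1.52 and no longer called (adjusted p = 0.0676, edgeR). Between MEC2 and PCL12 the Log2FC was 0.08, with a 95% interval from -0.64 to 0.80. Relative to the other lines, PCL12 thus combined high IL2RA with high IL2RB, MEC2 had high IL2RB with little IL2RA, and HG3 had the lowest level of IL2RB.

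IL2RG, the common γ chain, differed little. It ranged from 151 to 182 CPM in unstimulated HG3, 216 to 222 CPM in MEC2 and 167 to 238 CPM in PCL12. MEC2 lay above HG3 in every library without passing the test (Log2FC 0.42, SE 0.22, adjusted p = 0.259, edgeR). A protein-coding gene without a symbol in GENCODE 44 overlaps most of IL2RG on the same strand and has no row of its own under an Ensembl name, so reads of the pair cannot be told apart. IL2RG lies at chrX:71107404-71112108.

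**Figure D2:**
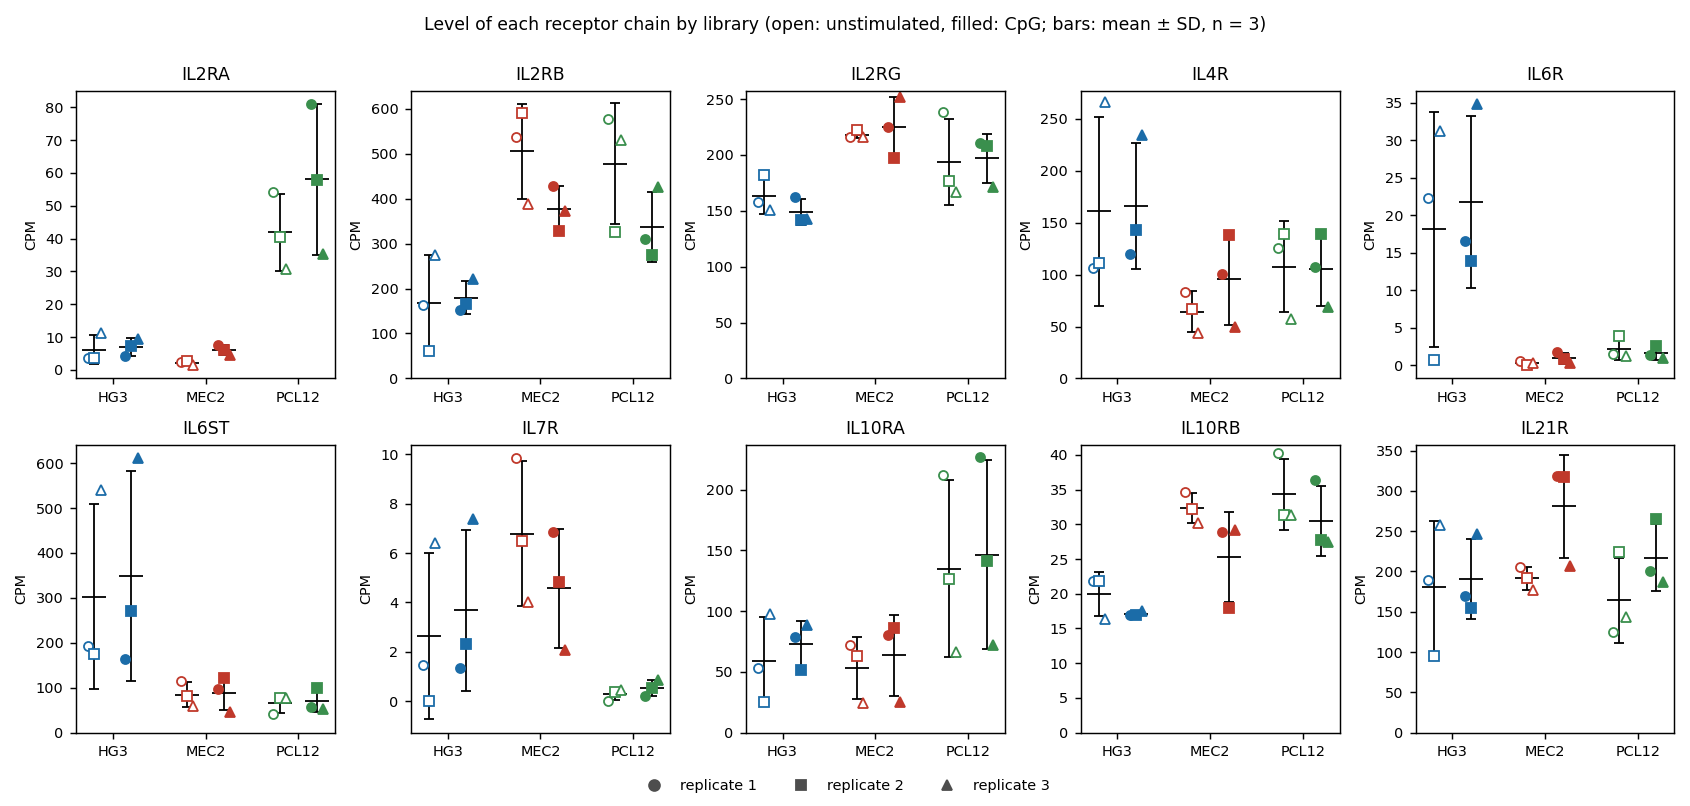
CPM (y axis, linear, from 0 or just below it) of each chain in every library by cell line; open symbols are unstimulated, filled symbols CpG-stimulated, symbol shape gives the replicate and bars the mean ± SD of 3 libraries. IL2RA is high in PCL12 alone, and IL6R and IL6ST are high in HG3. Replicate 3 of HG3 lies above the other HG3 libraries of its state for every chain but IL2RG and IL10RB.

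Both chains of the IL-6 receptor had their highest mean level in HG3. IL6R lies at chr1:154405193-154469450 and IL6ST at chr5:55935095-55995022. IL6R, the ligand-binding chain, had 22.4, 0.774 and 31.3 CPM in unstimulated HG3. It had 0.573, 0 and 0.285 CPM in MEC2 and 1.47, 3.85 and 1.28 CPM in PCL12. The HG3 value of 0.774 CPM, from 15 counts, belongs to the library with the high mitochondrial share, whereas all CpG-stimulated HG3 libraries had 13.9 to 34.9 CPM. MEC2 was below HG3 in every library, and PCL12 overlapped HG3 through that single library. The difference of MEC2 was called (Log2FC -5.91, SE 1.26, adjusted p = 0.00669, edgeR), and that of PCL12 was not (Log2FC -3.05, SE 1.07, adjusted p = 0.0993). The size of the MEC2 difference is loose, since it rests on 20, 0 and 10 counts in MEC2: it stayed called at -6.80 without MEC2 replicate 1 (adjusted p = 0.0185) and at -5.27 without HG3 replicate 3 (adjusted p = 0.0188, edgeR). Without HG3 unstimulated replicate 2, PCL12 was called too (Log2FC -3.59, adjusted p = 0.00674, edgeR), as it was with DESeq2 (adjusted p = 0.0259).

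IL6ST, which transmits the signal of IL-6, IL-11, LIF and oncostatin M, had 193, 175 and 540 CPM in unstimulated HG3. It had 114, 80.7 and 58.2 CPM in MEC2 and 40.4, 76.3 and 77.8 CPM in PCL12. No library of MEC2 or PCL12 reached the lowest HG3 library, and HG3 replicate 3 had more than any other. Both differences were called, with a Log2FC of -1.84 (SE 0.54, adjusted p = 0.0413) in MEC2 and -2.22 (SE 0.55, adjusted p = 0.0155, edgeR) in PCL12, which is 3.59-fold and 4.67-fold lower. Neither call held throughout: without HG3 unstimulated replicate 3 the values were -1.13 (adjusted p = 0.189) and -1.51 (adjusted p = 0.0754, edgeR). The call was also lost in settings where the Log2FC was of similar size or larger. In MEC2 it was -2.09, -1.81 and -1.64 without unstimulated replicate 1, 2 or 3 of that line (adjusted p = 0.0536, 0.125 and 0.164, edgeR). With a block for the replicate number, shared over the lines, it was -1.72 (adjusted p = 0.107, edgeR). In PCL12 it was -1.96 without replicate 1 (adjusted p = 0.0624) and -2.89 without replicates 2 and 3 (adjusted p = 0.109, edgeR). Without all libraries that stand apart it was -2.10 in MEC2 and -3.14 in PCL12 (adjusted p = 0.127 and 0.192, edgeR).

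Of the chains that pair with the γ chain, IL4R and IL21R were expressed in all lines and IL7R was low. IL7R, the receptor for IL-7 and a chain typical of early B cells and T cells, had 1.45, 0 and 6.42 CPM in unstimulated HG3. It had 9.86, 6.49 and 4.02 CPM in MEC2 and 0, 0.357 and 0.464 CPM in PCL12. MEC2 was above PCL12 in every library, and the Log2FC of 4.59 (SE 1.32) had an adjusted p of 0.106 in edgeR, 0.00713 in DESeq2 and 0.0454 in limma-voom. The 0 in HG3 was again replicate 2, at a floor of 0.155 CPM. The 0 in PCL12 was replicate 1, and the 2 libraries with counts were those that carried MEC2 transcripts. The part of these transcripts in the IL7R counts was not tested.

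IL4R, the receptor chain for IL-4 and IL-13, ranged from 106 to 266 CPM in unstimulated HG3, 43.3 to 83.1 CPM in MEC2 and 57.7 to 139.6 CPM in PCL12. MEC2 lay below HG3 in every library (Log2FC -1.32, SE 0.44), with an adjusted p of 0.0679 in edgeR and 0.0143 in DESeq2. IL21R ranged from 95.3 to 258 CPM in HG3, 177 to 206 CPM in MEC2 and 125 to 225 CPM in PCL12, with overlap throughout. The Log2FC of IL21R against HG3 was 0.08 in MEC2 (95% interval -0.54 to 0.70) and -0.14 in PCL12 (-0.76 to 0.48). IL4R and IL21R lie near each other on chromosome 16, at chr16:27313668-27364778 and chr16:27402174-27452042, and IL21R-AS1, an antisense gene with a row of its own, overlaps IL21R.

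The IL-10 receptor chains were found in all lines. IL10RA, which binds IL-10, ranged from 25.4 to 97.6 CPM in unstimulated HG3, 23.9 to 72.2 CPM in MEC2 and 66.6 to 212 CPM in PCL12. In PCL12 the 212 CPM was replicate 1. The 126 and 66.6 CPM were replicates 2 and 3, which carried MEC2 transcripts, and the part of these transcripts was not tested for IL10RA. None of its differences was called in the main analysis (PCL12 against HG3, Log2FC 1.20, SE 0.62, adjusted p = 0.277, and MEC2 against PCL12, Log2FC -1.35, SE 0.62, adjusted p = 0.448, edgeR). With no filter both were called, at Log2FC 1.21 (adjusted p = 4.51e-04) and -1.38 (adjusted p = 1.11e-04, edgeR). IL10RB, the chain that the IL-10, IL-22 and IFN-λ receptors share, had 21.8, 21.9 and 16.3 CPM in HG3. It had 34.6, 32.2 and 30.2 CPM in MEC2 and 40.3, 31.4 and 31.3 CPM in PCL12, above HG3 in every library of both. The Log2FC was 0.69 in MEC2 (SE 0.25, adjusted p = 0.0882) and 0.78 in PCL12 (SE 0.25, adjusted p = 0.0508, edgeR). With a block for the replicate number, shared over the lines, the PCL12 value passed (0.77, adjusted p = 0.0434, edgeR). With library totals in place of TMM factors both passed (adjusted p = 0.0458 and 0.0190, edgeR), as with DESeq2 (adjusted p = 0.0432 and 0.0189). The PCL12 value alone passed with limma-voom (adjusted p = 0.0474) and with the filterByExpr filter (adjusted p = 0.0317, edgeR). Neither passed with RLE factors, with no filter or with the compared groups alone. The readthrough gene IFNAR2-IL10RB overlaps IL10RB on the same strand of chromosome 21 and had no row of its own.

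For the 4 chains called in an unstimulated comparison, the gene with the most similar pattern over the 18 libraries was sought among 13990 genes, as the smallest root mean square difference of centered log2 CPM. These were STC2 for IL2RA (0.678 on the log2 scale), TOR4A for IL2RB (0.285), FRMPD2 for IL6R (1.06) and ZMAT3 for IL6ST (0.327). The nearest member was at rank 152 for IL2RA (IL10RA), 1024 for IL2RB (IL10RB), 245 for IL6R (IL6ST) and 338 for IL6ST (IL4R). The libraries share their line and their depth, and no test was made.

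The question of the stimulation was which chains changed after 4 h of TLR9 signaling. With the unpaired test no member was called in any line: 0 of 10 in HG3 and in MEC2, where 0.00314% of all genes were called in each, 0 of 10 in PCL12, where 0% were, and 0 of 10 for the mean of the 3 lines (0.00941%). By the DEG definition 1 of 10 passed in MEC2, against 0.251% of all genes, and none in HG3 (0.496%) or PCL12 (0.116%). At an unadjusted P under 0.05 the count was 1 of 10 in MEC2, beside 2.46% of all genes, and 1 of 10 for the mean of the lines (4.04%). It was 0 of 10 in HG3 (3.73%) and in PCL12 (2.09%), and DESeq2 and limma-voom called 0 members in each, at 0% to 0.0157% and 0% to 0.00628% of all genes. The median Log2FC of the members was 0.14 in HG3, 0.16 in MEC2 and 0.07 in PCL12, beside 0, 0 and 0.02 over all tested genes.

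The member that passed was IL2RA in MEC2. CpG-stimulated MEC2 cells had 7.51, 6.01 and 4.49 CPM, against 2.35, 2.57 and 1.37 CPM in the unstimulated ones. The groups did not overlap, and the log2 ratio within the 3 pairs was 1.67, 1.22 and 1.71. The Log2FC was 1.53 (SE 0.43, 95% interval 0.63 to 2.42, adjusted p = 1.00, edgeR), a 2.88-fold difference. The replicate block compares each stimulated sample with its own control. The spread in that fit is estimated with help from all genes, so its P does not rest on these 3 pairs alone. With the replicate block the adjusted p was 4.74e-05 (Log2FC 1.53, SE 0.27, edgeR), where 0.333% of all genes were called. It was 4.78e-05 without MEC2 pair 2 (Log2FC 1.69), whose stimulated library had the high mitochondrial share, and 8.88e-04 without the PCL12 libraries 2 and 3. The unpaired Log2FC ran from 1.29 to 1.69 when single libraries were left out, and the DEG definition was no longer met without MEC2 unstimulated replicate 3 or with limma-voom. On this level MEC2 after CpG, at 6.0 ± 1.51 CPM (SD, n = 3), was near unstimulated HG3 at 6.12 ± 4.47 CPM and below unstimulated PCL12 at 41.9 ± 11.7 CPM.

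**Figure D3:**
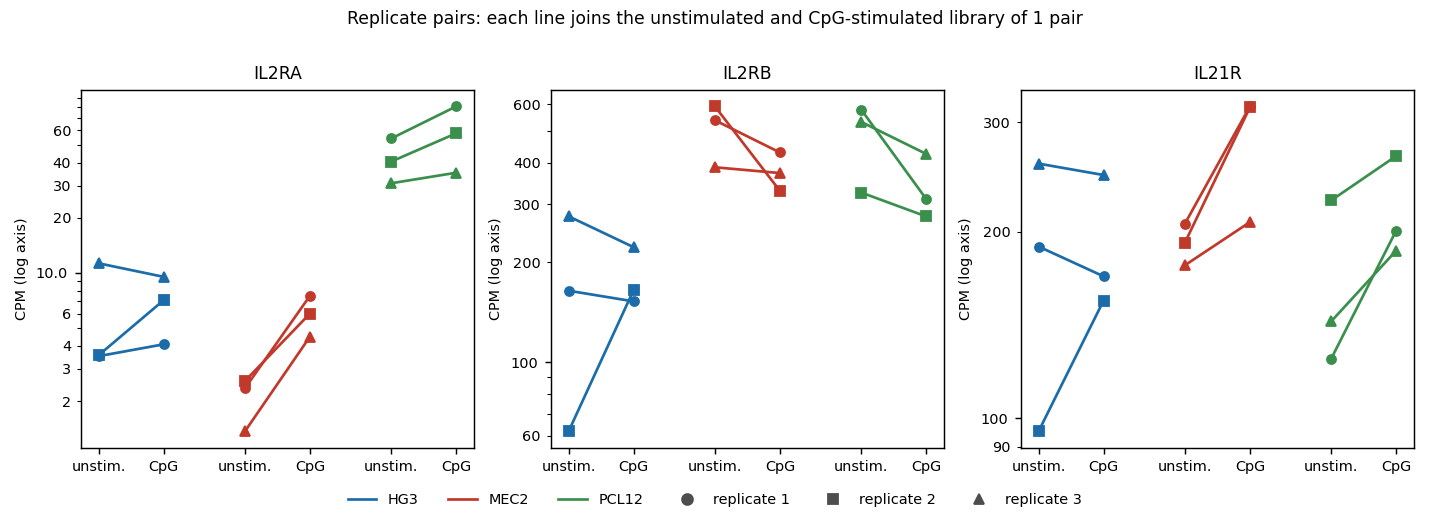
CPM (log y axis) of IL2RA, IL2RB and IL21R, with each line joining the unstimulated (left) and CpG-stimulated (right) library of 1 replicate pair; colors give the cell line and symbols the replicate. IL2RA lies higher and IL2RB lower after CpG in all 6 MEC2 and PCL12 pairs, and HG3 unstimulated replicate 2 is low for IL2RB and IL21R.

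In PCL12, where IL2RA was high from the start, CpG-stimulated cells had 81.1, 57.8 and 35.2 CPM against 54.2, 40.5 and 30.9 CPM. The pairs gave log2 ratios of 0.58, 0.51 and 0.19, the groups overlapped, and the Log2FC was 0.47 (SE 0.41, 95% interval -0.37 to 1.31). In HG3 the values were 4.08, 7.11 and 9.52 CPM against 3.52, 3.56 and 11.3 CPM, with pair ratios of 0.21, 0.99 and -0.24. IL2RA was thus higher after CpG in 8 of 9 pairs. For the mean of the lines the Log2FC was 0.72 (SE 0.24, 95% interval 0.23 to 1.22, adjusted p = 1.00), and with the replicate block 0.75 (SE 0.15, adjusted p = 3.88e-04, edgeR), where 0.555% of all genes were called. The response of MEC2 exceeded that of HG3 by 1.36 (SE 0.60, 95% interval 0.13 to 2.59, adjusted p = 1.00) and that of PCL12 by 1.05 (SE 0.59, -0.16 to 2.27, adjusted p = 1.00, edgeR). Between responses 0 of 10 members were called in any of the 3 comparisons, with a background of 0% for MEC2 against HG3, 0.00314% for PCL12 against HG3 and 0% for MEC2 against PCL12, so a difference between the lines in the IL2RA response was not called. With the replicate block it was 1.24 against HG3 (SE 0.38, adjusted p = 0.260) and 1.11 against PCL12 (SE 0.37, adjusted p = 1.00, edgeR). Both blocked values met the DEG definition, as 0.875% and 0.336% of all genes did, and neither was called. At an unadjusted P under 0.05 in the unpaired test, IL2RA in MEC2 against HG3 was the only one, beside 4.10% of all genes there and 4.16% and 3.23% in the other comparisons.

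IL2RB ran the other way. After CpG it had 429.5, 329 and 372 CPM in MEC2 and 311, 275 and 425 CPM in PCL12. These were lower than the control in all 6 pairs. The MEC2 pairs gave log2 ratios of -0.32, -0.85 and -0.06, and the PCL12 pairs gave -0.90, -0.24 and -0.32. The -0.85 belongs to the MEC2 pair with the mitochondrial-rich library, without which the blocked Log2FC in MEC2 was -0.19 in place of -0.41. In HG3, 153, 165 and 222 CPM gave ratios of -0.11, 1.42 and -0.31, the high one from the pair whose control stood apart. IL2RB was lower in 8 of 9 pairs. The test did not pass in MEC2 (Log2FC -0.42, SE 0.35, 95% interval -1.14 to 0.29) or PCL12 (-0.50, SE 0.35, -1.22 to 0.21), nor with the block (adjusted p = 1.00 in both, edgeR).

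IL21R, the receptor for the T helper cytokine IL-21, was at 319, 317 and 207 CPM after CpG in MEC2 and 201, 265 and 186 CPM in PCL12. All 6 pairs of these lines lay above their control. The log2 ratios were 0.63, 0.72 and 0.23 for MEC2 and 0.69, 0.24 and 0.38 for PCL12. In HG3 the ratios were -0.16, 0.70 and -0.06. The Log2FC was 0.55 in MEC2 (SE 0.30, 95% interval -0.07 to 1.17) and 0.40 in PCL12 (SE 0.30, -0.22 to 1.02). For the mean of the lines it was 0.34 (SE 0.17), and with the block 0.37 (SE 0.12, adjusted p = 0.181, edgeR), which is not a call.

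IL10RB was lower after CpG in 8 of 9 pairs by small amounts. HG3 pairs had log2 ratios of -0.36, -0.37 and 0.10. MEC2 pairs had -0.26, -0.85 and -0.05, and PCL12 pairs had -0.15, -0.17 and -0.19. The lowest of these, -0.85, is the MEC2 pair with the mitochondrial-rich library. The Log2FC was -0.22 in HG3, -0.36 in MEC2 and -0.17 in PCL12 (SE 0.25 in each). IL10RA was higher in 8 of 9 pairs. Its log2 ratios in HG3 were 0.56, 1.02 and -0.15, the 1.02 from the pair whose control stood apart. It was higher by 0.10, 0.16 and 0.11 on the log2 scale in PCL12 and by 0.15, 0.44 and 0.09 in MEC2, and with the block its Log2FC for the mean of the lines was 0.27 (adjusted p = 0.798, edgeR).

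Groups without overlap between stimulated and unstimulated libraries were found for 3 of 10 members in MEC2 (IL2RA and IL21R above, IL10RB below), where 4.72% of all genes had none. They were found for 0 of 10 in HG3 (3.72%) and 0 of 10 in PCL12 (4.55%). These 3 members were noted after their values were seen, and none is called in the unpaired test.

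**Figure D4:**
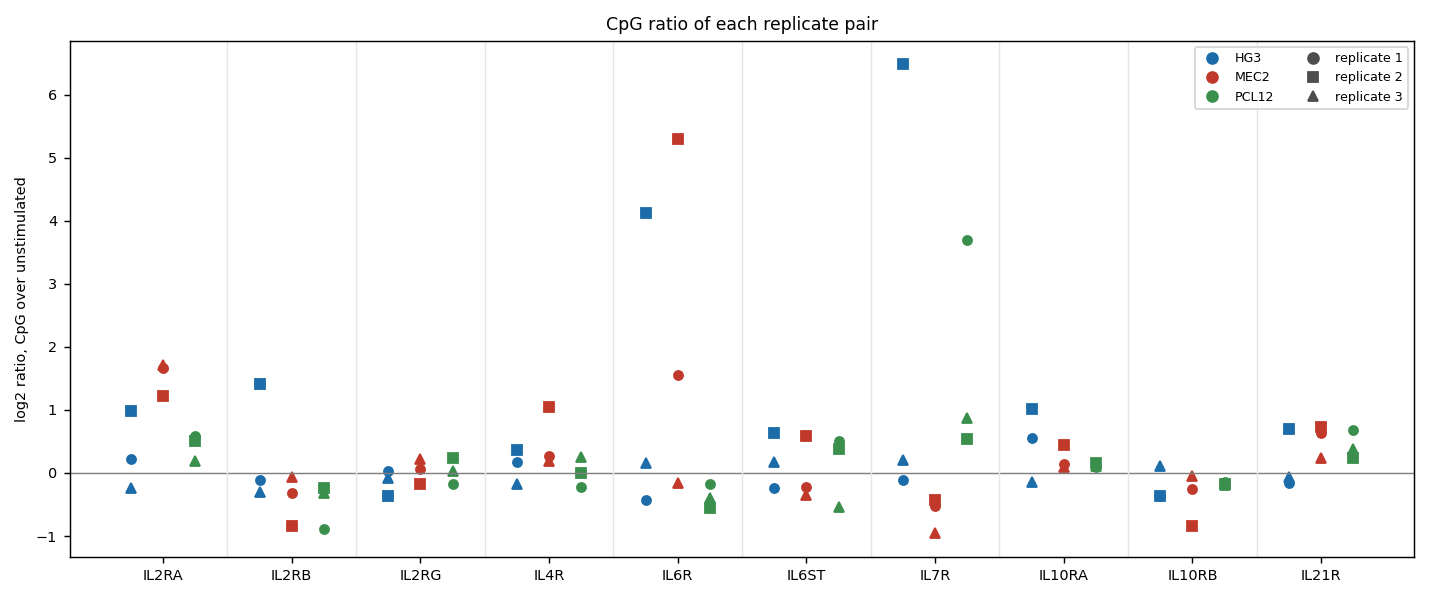
Log2 ratio of CpG-stimulated over unstimulated CPM (y axis) for each replicate pair and chain (x axis), colored by line; 0.5 counts were added to both libraries. IL2RB and IL10RB lie below 0 in 8 of 9 pairs and IL2RA above 0 in 8 of 9, and the highest points of IL6R and IL7R come from pairs whose unstimulated library had 0 or 15 counts.

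The remaining chains showed no common direction. IL2RG had pair ratios between -0.36 and 0.24, and its 95% interval was -0.58 to 0.31 in HG3, -0.40 to 0.48 in MEC2 and -0.42 to 0.46 in PCL12, so a change of 2-fold lay outside the interval in each line. For IL4R the ratios ran from -0.22 to 1.04 and for IL6ST from -0.54 to 0.63. Stimulated HG3 cells had 16.6, 13.9 and 34.9 CPM of IL6R, with 1.71, 0.788 and 0.244 CPM in MEC2 and 1.32, 2.60 and 0.965 CPM in PCL12. Stimulated MEC2 cells had 6.86, 4.83 and 2.05 CPM of IL7R, with 1.33, 2.30 and 7.38 CPM in HG3 and 0.200, 0.520 and 0.863 CPM in PCL12. Their intervals were wide, from -0.82 to 4.09 around a Log2FC of 1.63 for IL6R in MEC2 and from -1.84 to 2.36 for IL6R in HG3. With the replicate block, and with no filter, IL6R in MEC2 met the DEG definition as a member beside IL2RA, where 0.555% and 0.530% of all genes did. It was called in neither (block: Log2FC 1.66, SE 0.47, adjusted p = 0.108, edgeR), and without MEC2 pair 2, whose unstimulated library had 0 counts, the blocked fit no longer met the definition.

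Counts for other genes of these pathways are read beside the shares of all tested genes called in either direction, 9.78% in MEC2 against HG3, 9.44% in PCL12 against HG3 and 2.05% in MEC2 against PCL12. Of 33 other cytokine receptor chains, 29 were tested, and 5 were called higher and 7 lower in MEC2 than in HG3, 4 higher and 6 lower in PCL12 than in HG3, and 1 lower in MEC2 than in PCL12 (IL13RA1, Log2FC -1.83). CSF2RB, the common β chain of the GM-CSF, IL-3 and IL-5 receptors, stood at 0.841 ± 0.155 CPM in HG3, 23.1 ± 2.43 CPM in MEC2 and 42.8 ± 10.1 CPM in PCL12 (SD, n = 3). Its Log2FC against HG3 was 4.75 in MEC2 (adjusted p = 3.66e-09) and 5.64 in PCL12 (adjusted p = 3.12e-10, edgeR). IFNLR1, which pairs with IL10RB in the IFN-λ receptor, followed the same order with 4.40 and 5.68. IL17RB (-3.56 and -2.62) and IFNGR1 (-1.29 and -2.15), receptor chains for IL-25 and IFN-γ, were lower in both lines than in HG3. After CpG none of the 29 was called. IL22RA1 met the DEG definition in HG3 without being called (adjusted p = 1.00, edgeR), on 0.155 to 0.421 CPM in the controls and 0 in the stimulated cells, levels close to the floor.

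Of 22 ligands, 18 were tested. IL10 and IL19, both cytokines of the IL-10 family, were called higher in MEC2 (adjusted p = 0.0122 and 0.00168) and in PCL12 (0.0467 and 0.00442, edgeR) than in HG3, where each was at 0 in all libraries. In unstimulated MEC2 they reached 0.541 to 1.06 CPM and 0.327 to 1.82 CPM, and in PCL12 0 to 0.713 CPM and 0.255 to 1.07 CPM. CLCF1, a ligand that signals through IL6ST, was lower in MEC2 than in HG3 (Log2FC -3.95, adjusted p = 0.0135), and IL7 was lower in PCL12 (-2.15, adjusted p = 0.0362, edgeR). After CpG no ligand was called in any line. IL6 met the DEG definition for the mean of the lines (adjusted p = 1.00, edgeR), at 0 to 0.575 CPM in every library.

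Of the 11 JAK and STAT genes, some were called higher and some lower in MEC2 than in HG3, 1 was lower in PCL12 than in HG3 and 1 lower in MEC2 than in PCL12. STAT5A, a transcription factor that IL-2 receptor signaling activates, had 73.1 ± 7.18 CPM in MEC2, 299.9 ± 135 CPM in HG3 and 232 ± 117 CPM in PCL12 (SD, n = 3). It was lower in MEC2 than in HG3 (Log2FC -2.04, adjusted p = 3.93e-04) and than in PCL12 (-1.66, adjusted p = 0.0107, edgeR). STAT5B was lower than in HG3 in both MEC2 (-1.09) and PCL12 (-0.97). JAK1 was higher in MEC2 than in HG3 (0.99, adjusted p = 0.0347, edgeR). None was called after CpG.

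Of 17 genes of feedback and receptor shedding, 1 was higher and 3 lower in MEC2 than in HG3, 1 higher and 2 lower in PCL12 than in HG3, and 1 lower in MEC2 than in PCL12. The SOCS proteins inhibit cytokine receptors, and SOCS1 (Log2FC -2.02, adjusted p = 6.53e-05) and SOCS3 (-3.97, adjusted p = 0.00613), a direct inhibitor at IL6ST, were lower in MEC2 than in HG3. SOCS1 was lower in PCL12 as well (-1.53, adjusted p = 0.00131), and SOCS3 had an adjusted p of 0.0518 there (edgeR). SOCS6 was lower in both (-6.44 and -2.06), and in MEC2 also than in PCL12 (-4.38, adjusted p = 6.28e-04, edgeR). ADAM10, a protease that sheds surface receptors, was higher in MEC2 than in HG3 (1.19, adjusted p = 0.00278, edgeR). After CpG none was called, and SOCS6 met the DEG definition in MEC2 (Log2FC 2.05, adjusted p = 1.00, edgeR) at 0.652 ± 0.316 CPM against 0.173 ± 0.275 CPM (SD, n = 3), with overlap between the groups.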

How the data were processed

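RNA was sequenced in 18 libraries of 3 cell lines. The authors deposited raw counts per gene symbol, without normalization. The submitters' processing notes name FastQC, MultiQC, Trimmomatic, STAR, featureCounts and hg38, the study's methods name a reverse-stranded library and the labels a QuantSeq kit, and versions, annotation, the strand setting of the counting and treatment of duplicates are not given in the sources used here. Samples were grouped by their labels, and no column belonged to another series.

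Genes with at least 10 counts over all libraries were kept (31872 of 42248 with a count). TMM factors scaled the deposited counts, which were fitted with edgeR 4.0.16 in R 4.3.3 (robust quasi-likelihood, 6 group means, 12 residual degrees of freedom), with Benjamini-Hochberg adjustment over all tested genes. Intervals are 95% intervals of the fit, and Python 3.11.15 drew the plots. All members are named. Genes of other lists are named where they rank among the 4 smallest P values of a list in an unstimulated comparison, are counted alone there, or passed a CpG rule. IL13RA1, as the single gene of its count, was named after its values were seen. The members and lists were chosen with earlier results of these data known.

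The series description puts 1 stimulated and 1 unstimulated sample in each replicate, so replicate numbers pair samples within a line. After removal of group means, paired libraries (genes of at least 1 CPM) correlated at 0.259, 0.212 and 0.480 for HG3. The values were 0.189, -0.0133 and 0.611 for MEC2 and 0.607, 0.494 and 0.515 for PCL12.

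Alternatives were DESeq2 1.42.0, limma-voom (limma 3.58.1), the replicate block, RLE factors, library totals, other filters, the compared groups alone and each library left out. For CpG the block paired samples within a line. Between unstimulated lines it was the replicate number shared over the lines. The labels do not say that equal numbers of different lines belong together. Positions are GENCODE 44 on GRCh38, and promoters are RefSeq GRCh38.p14. Some genes of the lists are not reported here.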

Additional observations from a re-analysis of the deposited data

Results flagged for a closer look

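The pair ratios of IL7R had opposite signs in MEC2 and PCL12, and neither line passed the test. In MEC2 it was lower after CpG in all 3 pairs (log2 ratios -0.52, -0.43 and -0.96), and in PCL12 it was higher in all 3 (3.69, 0.53 and 0.88), the first against an unstimulated library with 0 counts. The difference of the responses, MEC2 minus PCL12, was -1.46 on the log2 scale (SE 1.66, 95% interval -4.97 to 2.05, adjusted p = 1.00, edgeR), which is not a call. PCL12 had 0 to 34 IL7R counts in a library.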

How the results depend on the processing

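Over all members and comparisons, 1890 single values were computed under an alternative; 35 newly passed the threshold, 16 no longer did, and 149 changed sign, 140 of them by less than the main SE and none of a called value. The members called in PCL12 against HG3, 3 in the main analysis, numbered 5 with DESeq2 and filterByExpr and 6 with no filter, where 13.7%, 16.5% and 8.94% of all tested genes were called, in place of 9.44%. In MEC2 against PCL12, 1 in the main analysis, they numbered 2 with DESeq2, limma-voom, filterByExpr, the compared groups alone or without the libraries that stand apart, and 4 with no filter, where all genes went from 2.05% to between 3.10% and 4.43%; without those libraries IL7R had 0 counts in unstimulated PCL12, so its fitted fold there is no bound. For CpG in MEC2, 0 members became 1 (IL2RA) with no filter (adjusted p = 0.0181, edgeR, with 0.104% of all genes called) and with the replicate block (0.333%), also when the block was run without the PCL12 libraries 2 and 3 (0.230%) or without MEC2 pair 2 (0.176%), and the mean of the lines went from 0 to 1 with the block (0.555%). Between unstimulated lines, the block for the replicate number shared over the lines changed the calls of IL6ST in MEC2 against HG3 and of IL10RB in PCL12 against HG3. Beside these and IL2RA after CpG, no other member's call changed with a block. With single libraries left out, 2 to 5 members were called in MEC2 against HG3 (7.09% to 9.22% of all genes) and 2 to 6 in PCL12 against HG3 (7.23% to 9.01%), the 6 without HG3 unstimulated replicate 2 (IL2RA, IL2RB, IL6R, IL6ST, IL7R and IL10RB). The compared groups alone lost IL2RA in MEC2 against HG3 (Log2FC -1.54, adjusted p = 0.167) and IL2RB in PCL12 against HG3 (1.52, adjusted p = 0.0676, edgeR). The cause of these changes was not tested.

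The 9 sign changes beyond the main SE were these. With single libraries left out, the Log2FC after CpG in HG3 ran from -0.26 to 0.67 for IL2RB and from -0.48 to 0.92 for IL6ST, IL21R in PCL12 against HG3 from -0.42 to 0.21, and the CpG response of PCL12 minus that of HG3 from -0.49 to 0.61 for IL2RA and from -1.36 to 1.44 for IL7R. IL2RG in MEC2 against PCL12 was -0.15 without PCL12 replicates 2 and 3 and -0.15 without the libraries that stand apart. Without the latter, IL2RB after CpG in HG3 was -0.26 and the IL2RG response of PCL12 minus HG3 was -0.16.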
